A study of Mus musculus with 8 samples.

Results

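The genes described here form the G1 cell cycle control circuit: the D-type cyclin genes Ccnd1, Ccnd2 and Ccnd3, the cyclin-dependent kinase (CDK) genes Cdk4, Cdk6 and Cdk2, the CDK inhibitor genes Cdkn1b and Cdkn2c, and the pocket protein genes Rb1 and Rbl2. They were chosen by gene symbol, with earlier results of these data known. All 10 were found among the 15288 genes of the count table and passed the filter on low counts that left 14024 genes. The cells were a mouse kidney line labelled IMCD, for inner medullary collecting duct. They were kept near 90% confluence and then for 12 h in DMEM without serum, either without added salt (control, n = 4 libraries, replicates 1 to 4) or with 100 mmol NaCl (NaCl, n = 4 libraries, replicates 5 to 8). No volume goes with the NaCl amount in the labels, which name no clone of the line and do not say whether the libraries came from separate cultures, so the p-values measure the spread between these libraries, which may be technical. Both groups were without serum for the whole 12 h, so every level below is a level in serum-free cells.

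D-type cyclins link growth signals to the cell cycle. They bind Cdk4 or Cdk6, and the active kinases phosphorylate the pocket proteins, which otherwise hold back E2F transcription factors and the genes needed for DNA replication. Inhibitors of the INK4 family, such as the product of Cdkn2c, bind Cdk4 and Cdk6 directly, whereas those of the CIP/KIP family, such as the product of Cdkn1b, bind complexes of cyclins with kinases, above all those with Cdk2. Collecting duct cells of the inner medulla live in fluid of high and changing salt content, and cultured renal medullary cells are known to slow their cycle for a time after a rise in salt.

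Library totals ran from 35.3 to 47.6 M (mega) counts, and control replicate 1 (the highest) and NaCl replicate 5 (the lowest) stood apart from the others of their groups. Each pair of replicates differed by more than counting error, with a mean chi-square per gene of 5.24 or more where counting error alone gives about 1. Of 14 markers of collecting duct and tubule epithelium, 12 had a median of at least 10 counts, and their summed level was 1272 to 1600 CPM (counts of the gene per M counts of the library) in control and 2218 to 2449 CPM in NaCl libraries. Among the defining markers, Aqp2 (0 to 15 counts a library), Aqp3 (3 to 28 counts), Avpr2 (0 to 48 counts) and Cdh1 (2 to 30 counts) were close to absent. Scnn1a was low (2.12 CPM in control and 2.49 CPM with NaCl), while Cdh16 and Pax8 were well above 100 CPM in both groups. The higher sum came from Cdh16 (639 and 1380 CPM), Pax2 (78.8 and 185) and Pax8 (160 and 231), while Hoxb7, Gata3, Tfcp2l1, Krt8 and Krt18 had lower means with NaCl. All 5 fibroblast markers were present, at a sum of 2747 to 3167 CPM in control and 2446 to 2816 CPM in NaCl libraries, mostly from Col1a1 (2492 and 2148 CPM), while Col3a1 (381 and 459) and Pdgfrb (37.5 and 61.1) had higher means with NaCl. The 3 proximal tubule markers in the table summed to 162 to 205 and 155 to 177 CPM, mostly Lrp2. The leukocyte markers summed to 5.95 to 7.19 CPM in control and 14.9 to 15.3 CPM in NaCl libraries, mostly Ptprc (4.05 and 13.5 CPM), while Cd68 was at 2.41 and 1.69 CPM. The thick ascending limb and endothelial lists stayed at or below 3.43 CPM. The part of these markers in the results was not tested. In bulk RNA fewer cells of a type and less RNA per cell cannot be told apart.

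With NaCl, the transcripts of the circuit moved in both directions, by at most 19.9% each. Ccnd2 and Cdk6 fell, Ccnd3 and both inhibitors rose, and Rbl2 rose, while Ccnd1, Cdk4, Cdk2 and Rb1 did not pass the test. In edgeR's quasi-likelihood test with Benjamini-Hochberg adjustment over all genes, 6 of the 10 were called at an adjusted p-value under 0.05, against 34.1% of all genes tested. Of these, 4 were called higher and 2 lower, where 16.9% of all genes were called higher and 17.2% lower. The CPM values of the groups did not overlap for the same 6 genes, which held for 33.4% of all genes. The 10 genes had a higher mean CPM than 61.6% (Rb1) to 96.9% (Cdk4) of all genes tested. The shares over all genes were not matched for level. The median log2 fold change of the 10 genes was 0.08, beside 0.00 (0.00287) over all genes tested, and their median absolute log2 fold change was 0.18, beside 0.14. Tested against a fold of 1.2 rather than against no change, edgeR's test called 0 of the 10, with 1 (Ccnd2) at an unadjusted p-value under 0.05, and called 7.67% of all genes. DESeq2 and limma-voom, each tested against no change, also called 6. With the library number in the fit, described below, the count changed. EdgeR's test called 7 with the number centred within groups (beside 43% of all genes) and 4 with a linear drift (beside 24.1%).

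**Figure D1:**
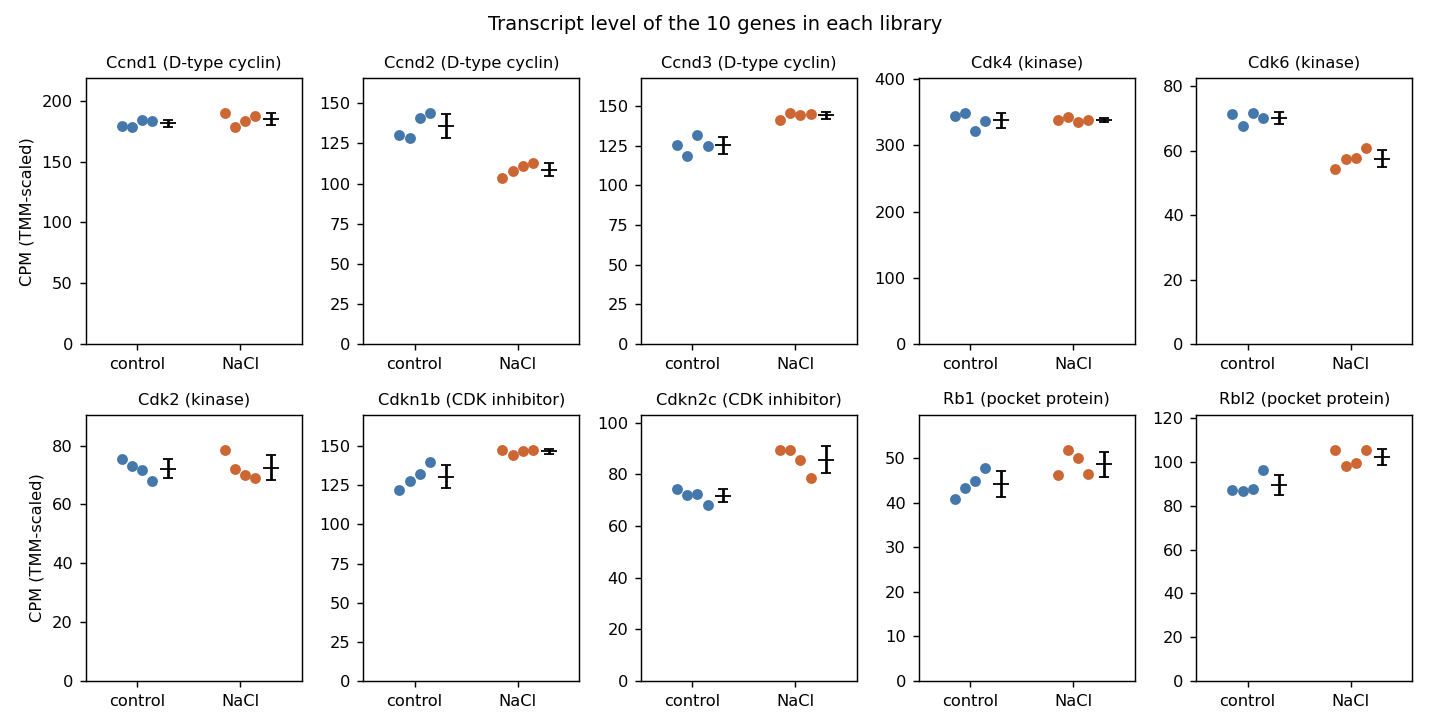
Transcript level of the 10 genes in each library, in CPM scaled by TMM factors (y axis, from 0), for the 4 control (blue) and 4 NaCl (orange) libraries; black bars are the mean and SD. For Ccnd2 and Cdk6 every NaCl point lies below every control point, and for Ccnd3, Cdkn1b, Cdkn2c and Rbl2 every NaCl point lies above; the points of Ccnd1, Cdk4, Cdk2 and Rb1 overlap.

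The D-type cyclin genes were taken first. Ccnd2 (ENSMUSG00000000184, chromosome 6 from 127125162 to 127152193, minus strand, in GENCODE M21 on GRCm38, the build also called mm10) had 130.01, 128, 141 and 144 CPM in control replicates 1 to 4 and 104, 108, 111 and 113 CPM in NaCl replicates 5 to 8. The highest NaCl library was below the lowest control library. Means were 136 ± 7.70 and 109 ± 4.10 CPM (SD, n = 4 in either group). Ccnd2 thus fell, with log2 fold change -0.32 (SE 0.043, edgeR adjusted p = 2.27e-05), which is -19.9% with a 95% confidence interval from -24.8% to -14.7%. Its product is the D-type cyclin best known for its induction by growth factors and hormones in ovary, lymphocytes and islets.

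Ccnd3 (ENSMUSG00000034165, chromosome 17 from 47505051 to 47599691, plus strand), whose product is often abundant in differentiating cells, went the other way. It had 126, 119, 132 and 125 CPM in the controls and 141, 145, 144 and 145 CPM with NaCl. All NaCl libraries lay above all controls, and the NaCl libraries lay close together. Ccnd3 rose from a mean of 125 ± 5.32 to 144 ± 1.95 CPM (log2 fold change 0.20, SE 0.036, edgeR adjusted p = 3.73e-04), or 15.002% (95% confidence interval 9.07 to 21.3%). The call was lost when the library number entered the fit as a linear drift, described below (0.15; edgeR adjusted p = 0.0888). The exons of Ccnd3 overlap those of Bysl on the other strand over 361 bases (4.11% of the exons), and Bysl itself changed by 0.15 on the log2 scale (adjusted p = 0.0391). Since no source used here says that strand was used in counting, reads of the overlap cannot be assigned to either gene.

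Ccnd1 (ENSMUSG00000070348, chromosome 7 from 144929931 to 144939925, minus strand) encodes the D-type cyclin most widely used by epithelial cells and was the most abundant of the family per exon length. It had 180, 178, 184 and 183 CPM in control and 190, 179, 184 and 187 CPM in NaCl libraries, and the groups overlapped. The log2 fold change was 0.03 (SE 0.032; edgeR adjusted p = 0.563), with a 95% confidence interval from -2.84% to 6.87%. The exons of Ccnd1 overlap those of LTO1 on the other strand over 1100 bases (23.4%), and LTO1, at 23.9 CPM in control and 24.0 CPM in NaCl libraries, had a log2 fold change of 0.01.

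Because 3 genes share the role of D-type cyclin, their makeup was examined as shares of the summed level, with each count divided by the length of the gene's merged exons. This measure does not depend on how libraries are scaled. Ccnd1 took 57.6, 58.2, 56.6 and 56.8% in the controls and 59.8, 57.5, 58.0 and 58.2% with NaCl. The means were 57.3 ± 0.735 and 58.4 ± 0.984% (SD, n = 4 each), and the groups overlapped (p = 0.2 in an exact permutation test, two-sided, and 0.267 adjusted over 4 ratio measures). The remainder was divided differently. Ccnd2 took 20.8 to 22.3% in control and 16.3 to 17.6% in NaCl libraries, and Ccnd3 took 20.8 to 21.7% and 23.9 to 25.1%. Neither pair of ranges overlapped. The shares of Ccnd2 and Ccnd3 were added after their values had been seen and were not tested.

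**Figure D2:**
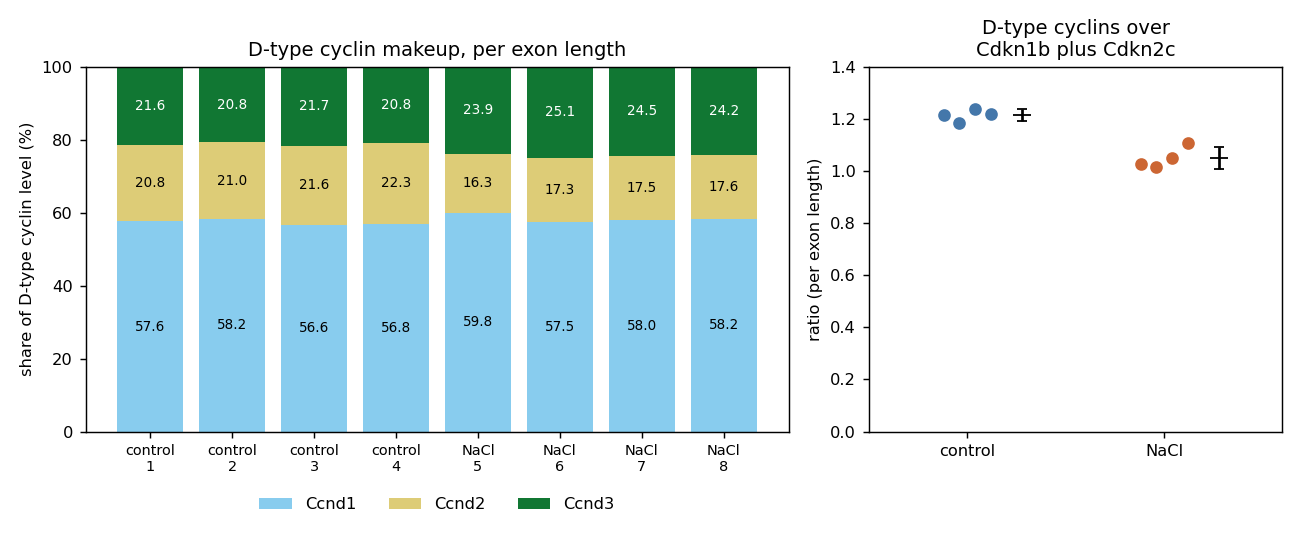
Left, share of Ccnd1, Ccnd2 and Ccnd3 in the summed D-type cyclin level per exon length (y axis, percent) in each of the 8 libraries. Right, ratio of the summed D-type cyclin level to the summed level of Cdkn1b and Cdkn2c, per exon length, with points for libraries and black bars for the mean and SD. With merged exons as the length, Ccnd2 and Ccnd3 take similar shares in the controls and Ccnd3 the larger share in each NaCl library. The 4 NaCl ratios (1.01 to 1.11) lie below the 4 control ratios (1.18 to 1.24). The sizes of shares and ratios depend on the length used.

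The promoters of Ccnd3 are shown because this gene rose while Ccnd2 fell. The 250 bases before each of its RefSeq starts (GRCm38.p6) are printed 5′ to 3′ on the strand of the gene, with matches to the GC box GGGCGG, a binding site of Sp1 type factors, in capitals (CCGCCC where the match is on the other strand). The windows lie at chr17:47504801-47505050 and chr17:47593217-47593466, on the plus strand.
Ccnd3 first start: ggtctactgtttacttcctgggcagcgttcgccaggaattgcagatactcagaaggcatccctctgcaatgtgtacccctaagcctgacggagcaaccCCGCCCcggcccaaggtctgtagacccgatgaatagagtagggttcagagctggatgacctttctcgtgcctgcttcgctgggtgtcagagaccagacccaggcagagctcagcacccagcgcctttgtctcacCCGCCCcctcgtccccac
Ccnd3 second start: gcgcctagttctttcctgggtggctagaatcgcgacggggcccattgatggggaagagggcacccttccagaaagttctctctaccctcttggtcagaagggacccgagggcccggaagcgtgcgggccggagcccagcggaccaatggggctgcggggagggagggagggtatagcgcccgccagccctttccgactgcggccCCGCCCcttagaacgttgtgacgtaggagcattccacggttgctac
The first window held 2 GC boxes, at 152 to 147 and 18 to 13 bases before the start, and the second held 1, at 46 to 41 bases before it.

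Among the kinases, Cdk6 (ENSMUSG00000040274, chromosome 5 from 3341485 to 3531008, plus strand), a partner of the D-type cyclins, fell. Its level was 71.4, 67.6, 71.7 and 70.3 CPM in control and 54.4, 57.5, 57.7 and 60.8 CPM in NaCl libraries. Every NaCl library was below every control. Cdk6 fell from a mean of 70.3 ± 1.88 to 57.6 ± 2.60 CPM (log2 fold change -0.29, SE 0.043, edgeR adjusted p = 7.70e-05), or a change of -18.0% (95% confidence interval -23.0% to -12.6%).

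Cdk4 (ENSMUSG00000006728, chromosome 10 from 127063534 to 127067920, plus strand), the other partner of the D-type cyclins, had the highest level per exon length of the 10 genes. It had 344, 349, 322 and 336 CPM in control and 339, 343, 336 and 338 CPM in NaCl libraries, with the NaCl values inside the control range. The log2 fold change was 0.00 (0.0044; SE 0.033; edgeR adjusted p = 0.934), and the 95% confidence interval ran from -4.39% to 5.24%. Cdk4 exons overlap those of Tspan31 on the other strand over 641 bases (19.7%), and Tspan31, at 91.4 and 90.8 CPM, had a log2 fold change of -0.01.

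Cdk2 (ENSMUSG00000025358, chromosome 10 from 128697939 to 128705031, minus strand), the partner of E- and A-type cyclins at the entry into DNA replication, had 75.6, 73.2, 71.9 and 67.9 CPM in control and 78.6, 72.1, 70.1 and 69.0 CPM in NaCl libraries. The groups overlapped in part, with NaCl replicate 5 above every control and control replicate 4 below every NaCl library. The log2 fold change was 0.01 (SE 0.048; edgeR adjusted p = 0.944; 95% confidence interval -6.41% to 7.65%).

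Cdk4 and Cdk6 do the same work with D-type cyclins, so their balance was measured per exon length. Cdk4 made up 95.4, 95.7, 95.1 and 95.4% of the summed level of Cdk4 and Cdk6 in control and 96.4, 96.3, 96.2 and 95.99% in NaCl libraries. All NaCl libraries were above all controls, with means of 95.4 ± 0.248 and 96.2 ± 0.175% (SD, n = 4 each). The exact two-sided permutation p was 0.0286, the smallest that 4 against 4 libraries can give, and 0.0571 when adjusted over the 4 ratio measures, which misses the threshold.

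The window before the RefSeq start of Cdk6 is shown as that of the called kinase. It lies at chr5:3343643-3343892 on the plus strand of GRCm38.p6 and is printed 5′ to 3′.
Cdk6: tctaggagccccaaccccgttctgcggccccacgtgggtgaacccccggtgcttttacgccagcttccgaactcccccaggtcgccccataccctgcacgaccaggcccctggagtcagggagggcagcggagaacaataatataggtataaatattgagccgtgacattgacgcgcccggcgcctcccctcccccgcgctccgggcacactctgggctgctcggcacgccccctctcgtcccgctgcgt
It held 0 GC boxes, while the windows of Cdk4 and Cdk2 held 1 and 5.

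Both inhibitor genes rose. Cdkn2c (ENSMUSG00000028551, chromosome 4 from 109660876 to 109667189, minus strand) encodes p18-INK4c, which binds Cdk4 and Cdk6. It had 74.3, 72.1, 72.3 and 68.3 CPM in the controls and 89.4, 89.5, 85.4 and 78.5 CPM with NaCl, with no overlap. Cdkn2c rose from a mean of 71.7 ± 2.52 to 85.7 ± 5.18 CPM (log2 fold change 0.26, SE 0.046, edgeR adjusted p = 4.08e-04), or 19.4% (95% confidence interval 11.6 to 27.8%). No exon of another annotated gene overlaps Cdkn2c or Cdkn1b.

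Cdkn1b (ENSMUSG00000003031, chromosome 6 from 134920401 to 134925513, plus strand) encodes p27-KIP1, the inhibitor that accumulates in resting and serum-starved cells, mostly through slower breakdown of the protein. It had 122, 128, 132 and 139.7 CPM in control and 148, 145, 147 and 148 CPM in NaCl libraries. The NaCl libraries lay within a narrow range above the controls, which were spread more widely and rose in order from replicate 1 to replicate 4. Cdkn1b rose from a mean of 130.5 ± 7.37 to 147 ± 1.47 CPM (log2 fold change 0.17, SE 0.039, edgeR adjusted p = 0.00312), or 12.4% (95% confidence interval 6.11 to 19.1%). Cdkn1b was not called when the library number entered the fit as a linear drift, described below (0.04; edgeR adjusted p = 0.724).

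Per exon length the inhibitor transcripts were nearly equal in amount. Cdkn1b made up 51.7 ± 2.27% of their sum in the controls and 50.3 ± 1.69% with NaCl (SD over 4 libraries), with overlapping groups (exact two-sided permutation p = 0.371, adjusted over the 4 ratio measures 0.371). Set against them, the summed D-type cyclins were 1.22, 1.18, 1.24 and 1.22 times as abundant in the controls and 1.03, 1.01, 1.05 and 1.11 times as abundant with NaCl. Every NaCl library had a lower ratio than every control. The mean log2 ratio was 0.28 ± 0.026 in control and 0.07 ± 0.056 in NaCl libraries, a difference of -0.21 (exact two-sided permutation p = 0.0286, the smallest possible with 4 against 4, and 0.0571 when adjusted over the 4 ratio measures). These are ratios of transcripts, and the proteins were not measured. The size of the ratio within each group depends on the length used. For Ccnd3 the merged exons span 8775 bases and the longest transcript 3858 bases.

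Cdkn2c has a pair of RefSeq starts, and both windows are shown because it had the highest log2 fold change of the 10 genes. They lie at chr4:109666757-109667006 and chr4:109665373-109665622, on the minus strand of GRCm38.p6, printed 5′ to 3′ with GC boxes in capitals.
Cdkn2c upstream start: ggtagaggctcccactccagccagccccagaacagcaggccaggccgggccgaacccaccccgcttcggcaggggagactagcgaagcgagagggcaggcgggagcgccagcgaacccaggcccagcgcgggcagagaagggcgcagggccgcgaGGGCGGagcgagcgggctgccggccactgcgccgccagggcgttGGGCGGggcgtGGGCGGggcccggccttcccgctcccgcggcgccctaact
Cdkn2c downstream start: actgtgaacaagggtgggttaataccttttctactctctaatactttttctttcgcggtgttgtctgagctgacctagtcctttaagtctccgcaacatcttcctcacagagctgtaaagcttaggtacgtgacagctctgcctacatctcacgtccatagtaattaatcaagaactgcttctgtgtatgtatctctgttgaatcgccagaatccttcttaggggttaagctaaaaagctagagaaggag
The upstream window was 77.2% G and C and held 3 GC boxes, and the downstream window was 42.8% G and C and held 0. The count table gives 1 value per gene, so the starts cannot be separated in these data.

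RefSeq windows were found for 7 of the 10 genes (Ccnd3, Cdk4, Cdk6, Cdk2, Cdkn1b, Cdkn2c and Rbl2), 9 windows in all. Searched on both strands, none of the 9 held the E2F site forms TTTCGCGC or TTTGGCGC. Other forms of the E2F site were not searched, so their presence is not known from this search. Also absent were the core TGGAAA of the site for the tonicity factor Nfat5 and the cAMP response element TGACGTCA. Over 14534 windows of the same length before starts of genes in the table, 1.14% held either of these E2F forms, 15.4% the Nfat5 core and 2.48% the cAMP response element. The GC box was searched after these gave no match. It occurred in 6 of the 9 windows and in 55.5% of all windows.

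The pocket protein genes both had higher means with NaCl. Rbl2 (ENSMUSG00000031666, chromosome 8 from 91070057 to 91123844, plus strand) encodes p130, the pocket protein that predominates in resting cells and holds E2F4 on cell cycle promoters in the DREAM complex. It had 87.1, 86.7, 87.9 and 96.5 CPM in control and 105, 98.3, 99.7 and 106 CPM in NaCl libraries. Control replicate 4 came closest to the NaCl libraries, and the groups did not overlap. Rbl2 rose from a mean of 89.5 ± 4.64 to 102 ± 3.76 CPM (log2 fold change 0.19, SE 0.043, edgeR adjusted p = 0.00222), or 14.2% (95% confidence interval 7.28 to 21.6%). With the library number in the fit as a linear drift, described below, Rbl2 was not called (0.09; edgeR adjusted p = 0.402). Its exons overlap those of Aktip (693 bases, 9.17%) and Gm45464 (892 bases, 11.8%), both on the other strand. Aktip changed by 0.21 on the log2 scale (adjusted p = 0.00339), and whether reads of Aktip add to the Rbl2 count was not tested.

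Rb1 (ENSMUSG00000022105, chromosome 14 from 73183673 to 73325822, minus strand) encodes the retinoblastoma protein. It had 40.8, 43.2, 44.8 and 47.7 CPM in control and 46.3, 51.8, 50.1 and 46.3 CPM in NaCl libraries, and control replicate 4 lay above 2 of the NaCl libraries. The log2 fold change was 0.14 (SE 0.056; 95% confidence interval 1.59 to 19.6%), with an unadjusted p-value of 0.0222 in edgeR's test and an adjusted p-value of 0.061. Without control replicate 4 the adjusted p-value was 0.0218 and without NaCl replicate 5 it was 0.0473, within a range from 0.0218 to 0.195 over the 8 fits that each left out a library. Its exons overlap those of Rcbtb2 (8.11%) and Lpar6 (6.78%) on the other strand, whose log2 fold changes were -0.07 and -0.18.

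Levels per exon length were ranked within each group, in CPM per kilobase (kb) of merged exons. In control libraries Cdk4 (104 ± 3.57) was highest, followed by Ccnd1 (38.5 ± 0.589), Cdkn1b (28.7 ± 1.62), Cdkn2c (26.7 ± 0.940), Ccnd2 (14.4 ± 0.818), Ccnd3 (14.3 ± 0.607), Rbl2 (11.8 ± 0.614), Cdk2 (11.6 ± 0.522), Rb1 (7.34 ± 0.476) and Cdk6 (5.02 ± 0.135; SD over 4 libraries). The ranges of Cdkn1b and Cdkn2c, of Ccnd2 and Ccnd3, and of Rbl2 and Cdk2 overlapped, and those of the other neighbours did not. With NaCl the order of the first 4 genes was kept, and Ccnd2 moved from the fifth to the eighth place, at 11.6 ± 0.436 CPM per kb. It then lay below Ccnd3 (16.4 ± 0.223) and Rbl2 (13.5 ± 0.498) without overlap, and overlapped Cdk2 (11.7 ± 0.690). Cdkn1b (32.2 ± 0.323) and Cdkn2c (31.9 ± 1.93) overlapped again. Merged exons include rarely used ones, so levels of genes with many annotated isoforms, such as Ccnd3 with 21, can be understated. The places in the order, among them those of Ccnd2 and Ccnd3, thus depend on the length used. The longest transcripts of Ccnd3 and Ccnd2 are 3858 and 6330 bases, beside 8775 and 9409 bases of merged exons.

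The libraries are numbered 1 to 4 in control and 5 to 8 in NaCl, and this number was tried as a covariate. In a fit with the number centred within groups, its slope was called for 3 of the 10 genes, beside 13.2% of all genes. Per library number, Ccnd2 rose by 0.050 on the log2 scale (adjusted p = 0.0146), Cdk2 fell by 0.055 (0.0202) and Cdkn2c fell by 0.050 (0.036). With the number entered as a linear drift from 1 to 8, a number that is higher in every NaCl library than in every control, edgeR's test called 4 of the 10 genes, against 24.1% of all genes. Ccnd2 (log2 fold change -0.52, SE 0.064), Cdk6 (-0.38, SE 0.081) and Cdkn2c (0.45, SE 0.074) were called in the same direction, with adjusted p-values of 9.29e-08, 5.06e-04 and 1.23e-05. Ccnd3 (0.15; adjusted p = 0.0888), Cdkn1b (0.04; 0.724) and Rbl2 (0.09; 0.402) were not called, and Cdk2 was called higher (0.22, SE 0.075; 0.0245). What the number stands for is not given in the labels, and drift and treatment cannot be told apart by this design.

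**Figure D3:**
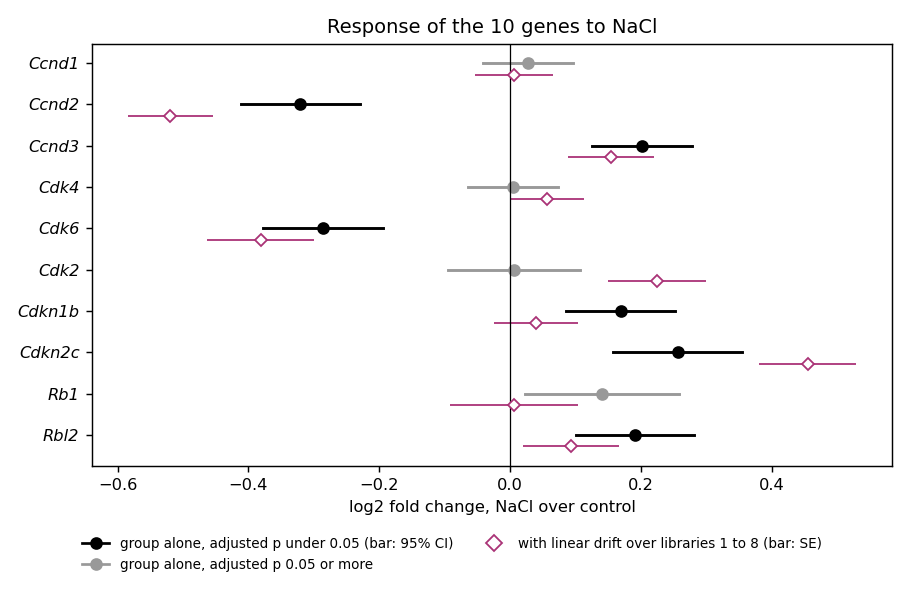
Log2 fold change, NaCl over control (x axis), of the 10 genes: filled circles with 95% confidence intervals from edgeR with the group alone (black where the adjusted p-value was under 0.05, grey otherwise), and open diamonds with standard errors from the fit that adds a linear drift over libraries 1 to 8. Ccnd2, Cdk6 and Cdkn2c lie farther from 0 with the drift, while Cdkn1b, Rb1 and Ccnd1 lie near 0 and Cdk2 moves to 0.22.

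Other genes of the pathway were taken from lists by role, which were also chosen with earlier results of these data known. Of 72 listed genes, 70 were tested and 22 were called, 10 higher and 12 lower. That is 31.4%, near and below the 34.1% of all genes tested, and the counts below are to be read against the same 34.1% (16.9% higher and 17.2% lower). With the library number centred within groups, 17 of the 70 were called higher and 18 lower (50%, beside 43% of all genes). With the linear drift the split turned to 28 higher and 8 lower (51.4%, beside 24.1% of all genes, of which 11.5% were higher and 12.6% lower). For every list, here and below, the counts with the library number in the fit were not planned in advance. Values below are from the fit with the group alone unless another is named. Among the E2F and DP factors, DNA-binding proteins of which pocket proteins restrain only a part, 7 of 10 were called. Of these, 4 were higher and 3 lower (70%, beside 34.1% of all genes), and with the linear drift 5 were higher and 2 lower. Tfdp2, which encodes the DP2 partner of E2F proteins, had 53.6, 52.5, 55.9 and 54.4 CPM in control and 141, 126, 115 and 114 CPM in NaCl libraries. The NaCl libraries lay far above the controls, the highest log2 fold change of all the listed genes (1.197, SE 0.059, edgeR adjusted p = 1.91e-09). E2f1, an activator of DNA replication genes, rose from 40.5 ± 3.16 to 48.3 ± 1.53 CPM (log2 fold change 0.25, SE 0.055; adjusted p = 0.00187). E2f5, which encodes a repressor type E2F that binds Rbl2 protein, fell from 21.9 ± 1.74 to 17.2 ± 1.19 CPM (-0.34, SE 0.075; adjusted p = 0.00189).

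For the known targets of E2F, the count of calls turned on whether the library number was in the fit. Of 20 genes for DNA replication and nucleotide synthesis, 1 was called with the group alone (5%, beside 34.1% of all genes), with a median log2 fold change of 0.02 and a range from -0.16 to 0.22. Within the groups, 18 of the 20 fell with the library number (slope at an edgeR adjusted p-value under 0.05), where the slope was called falling for 6.22% of all genes and in either direction for 13.2%. Mcm2, a subunit of the replicative helicase named here after its values were seen, had 265, 233, 209 and 207 CPM in control replicates 1 to 4 and 268, 260.1, 245 and 229 CPM in NaCl replicates 5 to 8. With the number centred within groups, 11 of the 20 were called, 7 higher and 4 lower, beside 43% of all genes. With the linear drift, 16 were called, all of them higher, beside 11.5% of all genes called higher, and the median log2 fold change was 0.32. In that fit, a fall with the number within groups raises the fold change by construction. The 16 calls are thus not a result apart from the 18 falling slopes. These counts of the list with the library number were added after the values had been seen. The gene called with the group alone was Tk1, which encodes thymidine kinase, at 0.22 (edgeR adjusted p = 0.0441), and it kept the call in 2 of 8 fits that each left out a library (adjusted p-values from 0.00185 to 0.109; lost without control replicate 2, 3 or 4 or NaCl replicate 5, 6 or 7). The call was also lost with library totals alone (adjusted p = 0.0523) and with no filter on low counts (0.0525). Tk1 was at 0.23 with the centred number (adjusted p = 4.94e-06) and at 0.63 with the linear drift (adjusted p = 7.16e-08). Of the E- and A-type cyclins tested, 1 of 3 was called, beside 34.1% of all genes. Ccne2, a partner of Cdk2, changed by -0.19 on the log2 scale (adjusted p = 0.0183), lost without control replicate 2 or NaCl replicate 6 or 7 (adjusted p up to 0.0739). Ccne1 had 18.6 ± 2.22 CPM in control and 18.3 ± 2.40 CPM in NaCl libraries (log2 fold change -0.03; adjusted p = 0.866). With the linear drift, Ccne1 was called higher (0.47; adjusted p = 0.0120) and Ccne2 was not called (0.017; 0.930).

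Of 5 other CDK inhibitors tested, 1 was called higher and 1 lower, beside 34.1% of all genes called. Their difference from Cdkn1b and Cdkn2c was not tested. Cdkn1a, which encodes the p53-induced inhibitor p21, had 144, 143, 148 and 148 CPM in control and 90.3, 111, 120.2 and 122 CPM in NaCl libraries. All NaCl libraries were lower, and replicate 5 was the lowest (log2 fold change -0.40, SE 0.081; edgeR adjusted p = 0.00421). Cdkn1c, which encodes p57, was low, with 15 to 31 counts in control and 36 to 56 counts in NaCl libraries (log2 fold change 0.98, SE 0.30; adjusted p = 0.0171, and from 0.0163 to 0.0517 when each library was left out, lost without control replicate 4 or NaCl replicate 8). Cdkn1c was not called with the linear drift either (1.196; adjusted p = 0.203). The INK4 genes Cdkn2a, Cdkn2b and Cdkn2d were not called, and Cdkn2a counts mix its p16 and p19-ARF transcripts.

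Among other pocket protein and DREAM complex genes, 3 of 7 were called, 2 higher and 1 lower (42.9%, beside 34.1% of all genes), and with the linear drift 3 higher and 0 lower. Lin9, a core subunit of the MuvB complex that DREAM is built on, rose from 23.2 ± 2.06 to 30.1 ± 2.25 CPM (log2 fold change 0.38, SE 0.072; edgeR adjusted p = 6.71e-04). Rbl1, which encodes the pocket protein p107 of cycling cells, changed by -0.17 on the log2 scale (adjusted p = 0.0201), against 0.19 for Rbl2, and lost the call without control replicate 1 or 2 or NaCl replicate 6 (adjusted p up to 0.0645), and it was not called with the linear drift (0.047; 0.754). The difference between Rbl1 and Rbl2 was not tested.

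Of 5 genes for CDK activation and 12 for the breakdown of G1 regulators, 1 gene in each list was called, and both were lower (20% and 8.33%, beside 34.1% of all genes). The median absolute log2 fold changes were 0.06 and 0.04, beside 0.14 over all genes tested. With the linear drift, the breakdown genes had 2 called higher and 0 lower. Mnat1, an assembly factor of the CDK-activating kinase, changed by -0.13 on the log2 scale (edgeR adjusted p = 0.0221, lost without control replicate 3 or NaCl replicate 5 or 6, at up to 0.0672). Skp2, the F-box protein that marks p27-KIP1 for breakdown, fell from 45.2 ± 4.11 to 37.1 ± 3.79 CPM (log2 fold change -0.29, SE 0.077; adjusted p = 0.0105). Skp2 and Cdkn1b thus moved in opposite directions in the fit with the group alone. With the linear drift in the fit neither was called, and the Skp2 value was 0.11 (adjusted p = 0.451).

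Of 8 genes that are known to drive D-type cyclin transcription, 2 were called higher and 4 lower (75% called, beside 34.1% of all genes, of which 16.9% were higher and 17.2% lower). In the fit with the drift, 0 were called higher and 4 lower (50%, beside 24.1% of all genes). Fosl1, an AP-1 subunit that activates Ccnd1, had 18.3, 19.4, 17.2 and 20.5 CPM in control and 6.28, 9.22, 9.50 and 11.05 CPM in NaCl libraries, with log2 fold change -1.06 (SE 0.13, edgeR adjusted p = 4.21e-05). Every NaCl library was below every control, while Ccnd1 itself overlapped between the groups. Tcf7l2, a Wnt pathway factor, changed by 0.24 on the log2 scale (adjusted p = 0.0299), lost in 5 of 8 fits that left out a library (without control replicate 1 or 2 or NaCl replicate 6, 7 or 8, at up to 0.108) and with the linear drift (-0.086; 0.719). Myc, which activates Ccnd2 and Cdk4, had 51.8 ± 1.99 CPM in control and 46.3 ± 2.84 CPM in NaCl libraries (log2 fold change -0.16; adjusted p = 0.022), lost without control replicate 4 or NaCl replicate 5, 6 or 7 (up to 0.0711).

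**Figure D4:**
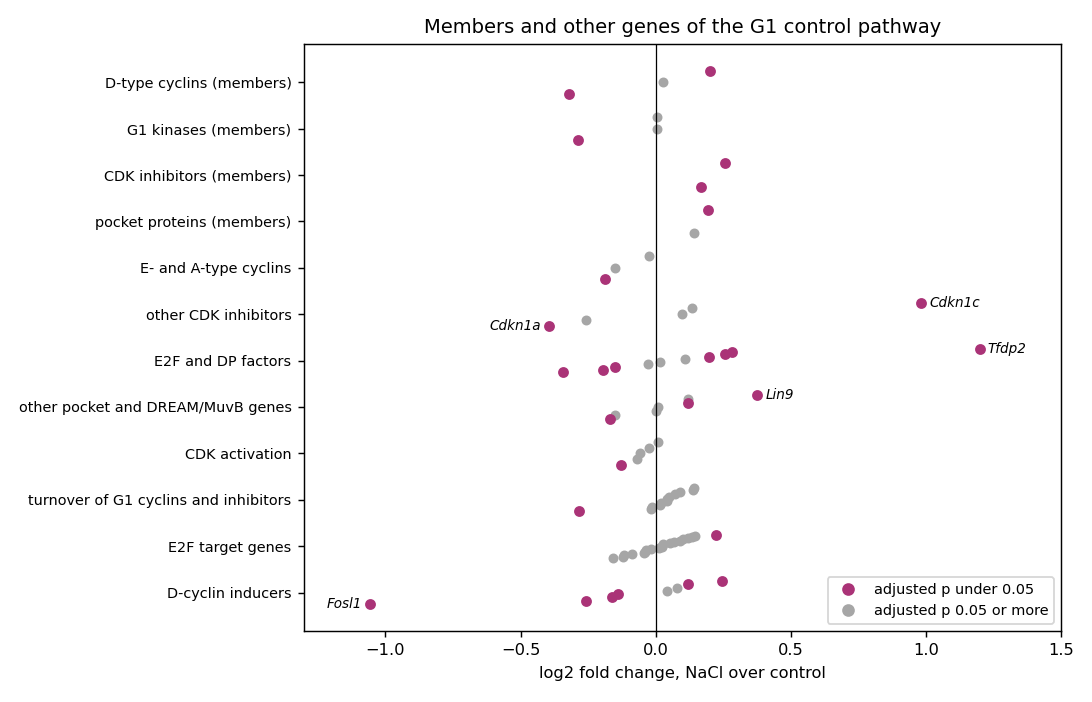
Log2 fold change, NaCl over control (x axis), of each tested gene by list (y axis) in the fit with the group alone, with purple points for an edgeR adjusted p-value under 0.05 and grey points otherwise; genes beyond 0.35 in either direction are named. The 10 genes lie between -0.32 and 0.26, the E2F targets lie between -0.16 and 0.22 with 1 of 20 called, and Tfdp2 (1.197) and Fosl1 (-1.06) are the extremes.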

How the data were processed

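RNA of 8 libraries was analysed, 4 control and 4 NaCl, grouped by the labels' titles. Raw counts per gene, deposited by the authors, were the input. A normalized signal, deposited by the authors, equals the raw count divided by 1 factor per library and served 1 alternative fit (limma on log2 of the value plus 1). Per the submitters' processing notes, Trim Galore 0.6.7, STAR, DESeq2 1.34.0 and build mm10 were used. The counter, annotation and strand setting are not given in the sources used here.

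Counts were filtered with filterByExpr (minimum count 10), scaled by TMM and tested in edgeR 4.0.16 (R 4.3.3) with a robust quasi-likelihood fit on the group, adjusted by Benjamini-Hochberg over 14024 genes and called under 0.05. CPM used TMM-scaled totals. Shares and ratios were compared by exact permutation tests over the 70 assignments of libraries. Exon lengths and positions came from GENCODE M21, which holds 15282 of the 15288 genes, and promoter windows from RefSeq (GRCm38.p6). Alternatives were other scalings, filters and thresholds, DESeq2 1.42.0, limma-voom 3.58.1, the library number as covariate and leaving out each library.

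The 10 genes and all lists were chosen with earlier results of these data known. Named besides the 10 were, in each list, the called gene with the highest and the lowest log2 fold change, and E2f1, Ccne1, Cdkn1a and Myc. Mcm2, Cdkn2a, Cdkn2b, Cdkn2d, the marker genes and the genes that overlap the 10 were named outside this rule.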

Additional observations from a re-analysis of the deposited data

Results flagged for a closer look

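In 60 sets of 4 libraries (CPM of the named genes, the ratio measures and total counts), the highest or lowest value was compared with its nearest neighbour. The gap was wide in 4 sets, where chance gives about 1 set in 20, or 3 of 60. Rbl2 had 96.5 CPM in control replicate 4, where the other controls had 86.7 to 87.9 CPM. Ccne2 had 40.8 CPM in NaCl replicate 5, where the others had 37.4 to 37.7 CPM. Total counts were 47.6 M in control replicate 1, where the others had 41.8 to 42.7 M. They were 35.3 M in NaCl replicate 5, where the others had 41.4 to 42.4 M.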

How the results depend on the processing

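Ccnd2, Ccnd3, Cdk6, Cdkn1b, Cdkn2c and Rbl2 were called in each of the 8 fits that left out a library, and under the other scalings, filters and tools and at a threshold of 0.01. They lost the call against a fold of 1.2 (log2 fold changes -0.32, 0.20, -0.29, 0.17, 0.26 and 0.19; adjusted p-values from 0.249 to 1), where 0 of the 10 genes and 1076 of all genes were called. At a threshold of 0.01, 3145 of all genes were called, and 6 of the 10. With a linear drift over libraries 1 to 8, Ccnd3 (0.15), Cdkn1b (0.039) and Rbl2 (0.093) lost the call and Cdk2 (0.22) gained it. Rb1 gained it with library totals alone (0.15; adjusted p = 0.0458) and with the centred library number (0.14; 0.0151). These causes were not tested.

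With each library left out in turn, Rb1 ranged from 0.10 to 0.18, and the values of Cdk4 (-0.020 to 0.017) and Cdk2 (-0.035 to 0.027), which were not called, changed sign. Ccne1 (-0.089 to 0.051) changed sign without control replicate 1 or NaCl replicate 8, and with the drift (0.47; adjusted p = 0.0120), as did Ccne2 (0.017), Rbl1 (0.047), Skp2 (0.11) and Tcf7l2 (-0.086) with the drift. The 4 ratio measures kept their direction, and their side of the threshold with plain counts and with the longest transcript, while with a library left out they were not tested. Sizes moved. The Ccnd1 share difference (1.08 percentage points) was 0.18 with the longest transcript and 0.60 without NaCl replicate 5. The Cdk4 share difference (0.815) was 2.70 with plain counts. The Cdkn1b share difference (-1.47) was -2.30 without control replicate 1, -0.479 without control replicate 4, -0.967 without NaCl replicate 6 and -2.25 without NaCl replicate 8. Of 20 E2F targets, 1 was called with the group alone, 11 with the centred number and 16 with the drift, both chosen for this list after seeing the data. The E- and A-type cyclins gave 1, 2 and 2 calls (all lower, all lower, then all higher), the genes of breakdown 1, 2 and 2 (1 lower, 1 in each direction, then 2 higher) and the other CDK inhibitors 2, 2 and 1. Counts with the number for these other lists were not planned either. All genes gave 34.1, 43 and 24.1% called. With the drift, values over 1.5 times those with the group alone that kept the call were Ccnd2 -0.52, Cdkn2c 0.45, E2f1 0.42, Lin9 0.67, Tk1 0.63, Cdkn1a -0.70, Myc -0.36 and Mnat1 -0.24. No paired analysis was made, because the groups share no replicate number and the labels give no pairing. Each of the 10 genes had at least 1658 counts in every library.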
